A study of Mus musculus with 2 samples.

Results

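The 6 genes studied here were reported elsewhere as targets of miR-375, in studies of pancreatic islets and of tumours: Pdk1, Mtpn, Jak2, Sp1, Mtdh and Sec23a. Their levels were read across the named cell types of the mouse jejunal crypt. The choice rests on their names in that literature and on no level measured here, though earlier results of these data were known. All 6 were present among the 27998 genes of the single-cell matrices. The cells came from 2 male mice of 12 months with a CRISPR/Cas9 deletion of miR-375 in the whole body (375KO), of FVB and B6 founders crossed back to B6 albino and labelled C57BL6/2J, with 1 library of jejunal crypts per mouse. These libraries form a single group, so no genotype was compared and no value here measures an effect of losing miR-375. The matrices hold no row for Mir375, and the deletion could therefore not be checked in these libraries.

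MicroRNAs are short RNAs that pair, mainly through their bases 2 to 8 (the seed), with the 3′ UTRs of messenger RNAs and reduce their stability or translation. miR-375 is best known from the pancreatic islet, where it restrains insulin secretion, and in the gut it is abundant in enteroendocrine cells, the hormone-producing cells of the epithelium. Myotrophin (Mtpn), which binds and inhibits the actin capping protein, was among the first targets reported in islets. JAK2 is the tyrosine kinase that many cytokine and hormone receptors use to activate STAT proteins, SP1 is a zinc-finger transcription factor of GC boxes, metadherin (Mtdh) is an RNA-binding oncoprotein that partners with SND1, and SEC23A is a subunit of the inner COPII coat, which buds vesicles from the endoplasmic reticulum towards the Golgi. The symbol Pdk1 belongs to pyruvate dehydrogenase kinase 1, which phosphorylates and inhibits the pyruvate dehydrogenase complex. The protein name PDK1 is also in use for 3-phosphoinositide-dependent protein kinase 1, the islet target, whose gene is Pdpk1, and Pdpk1 is therefore given beside Pdk1.

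To show what each transcript offers the miRNA, the longest annotated 3′ UTR of each gene (GENCODE M21, mm10) was searched for the 8mer CGAACAAA, the 7mer-m8 CGAACAA and the 7mer-A1 GAACAAA, on the transcript's strand. These letters pair with the seed UUGUUCG, which was read from bases 41 to 47 of the Mir375 hairpin in RefSeq (GRCm38.p6). An 8mer contains both 7mers and was counted once. Matches were found in Mtpn, Jak2, Sp1 and Sec23a, that is in 4 of the 6 genes, and every one was a 7mer-A1 site. No match lay in the 3734 bases of Pdk1 or the 4862 bases of Mtdh, whereas Pdpk1 held 2 matches in 5346 bases. Among 21024 protein-coding genes with a 3′ UTR, 13.4% held at least 1 such match, and among the 8185 whose 3′ UTR was as long as those of the 6 genes (1232 to 5372 bases) the share was 23.0%. A match of letters is a description and not a measured site of binding.

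Each match is given in a window of 30 bases, 5′ to 3′ on the transcript, with the matching bases in capitals.
Mtpn site 1: tcgtgttgcaaGAACAAAtggaataaactt
Jak2 site 1: ttccagaaccaGAACAAAgctctgtagcct
Jak2 site 2: caaagcaaaagGAACAAAggtctagtttta
Sp1 site 1: acgatagcccaGAACAAAaagaaatcttgt
Sec23a site 1: ataagagccagGAACAAAtcaatagtgatg
Pdpk1 site 1: aaccacacaaaGAACAAAacaaatagccaa
Pdpk1 site 2: gaatccaaactGAACAAAagtttttacaaa

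All 7 matches lie in the last exon of their gene. The Mtpn match (chr6:35509090-35509096, minus strand, exon 4 of 4) starts 3135 bases after the stop codon of 3325 bases. In Jak2 the matches (chr19:29311893-29311899 and chr19:29312423-29312429, plus strand, exon 24 of 24) start 45 and 575 bases after the stop codon. The Sp1 match (chr15:102432481-102432487, plus strand, exon 6 of 6) starts at base 1449 and the Sec23a match (chr12:58959612-58959618, minus strand, exon 20 of 20) at base 379. Both Pdpk1 matches (chr17:24078843-24078849 and chr17:24074383-24074389, minus strand, exon 14 of 14) lie near an end of its 3′ UTR, at bases 177 and 4637. Pdk1 itself lies at chr2:71873224-71903858 on the plus strand and Mtdh at chr15:34082694-34145624 on the plus strand.

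**Figure D1:**
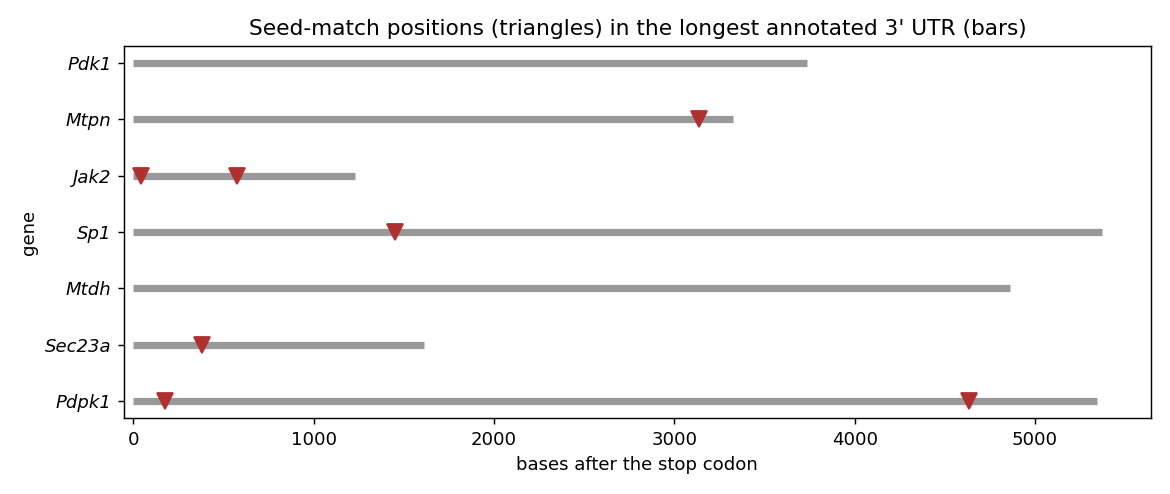
Place of the seed matches (triangles) along the longest annotated 3′ UTR (grey bars) of the 6 genes and of Pdpk1, in bases after the stop codon. Jak2 and Pdpk1 hold 2 matches each, Mtpn, Sp1 and Sec23a 1 each, and Pdk1 and Mtdh none.

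The authors kept 2082 cells of mouse 1 and 1193 cells of mouse 2, with a median of 16475 and 15232 UMIs (counted molecules) and a median mitochondrial share of 10.2% and 5.55%. The libraries shared 0 cell barcodes. Each cell carried 1 of 10 deposited names, 9 epithelial and IEL (intraepithelial lymphocytes), and 45 of 50 marker genes of 8 of these types were highest in their own type in both mice (the exceptions were Ascl2, Pcna, Mcm4, Stmn1 and Krt20). The names were drawn from the expression of these same cells, so that a test between types describes how the named classes stand apart in 2 mice. UMIs were summed per type and mouse, and a level (CPM) is the gene's UMIs in every 1000000 UMIs of that sum, with an exact 95% Poisson interval that covers counting error only. In Paneth cells the 10 most abundant genes took 82.6% and 81.9% of all UMIs, which pulls every other gene down on this scale. Levels are therefore also given after TMM scaling (edgeR's trimmed mean of M values), which gave the Paneth sums factors of 0.151 and 0.118 against 0.919 to 1.54 for the other sums.

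**Figure D2:**
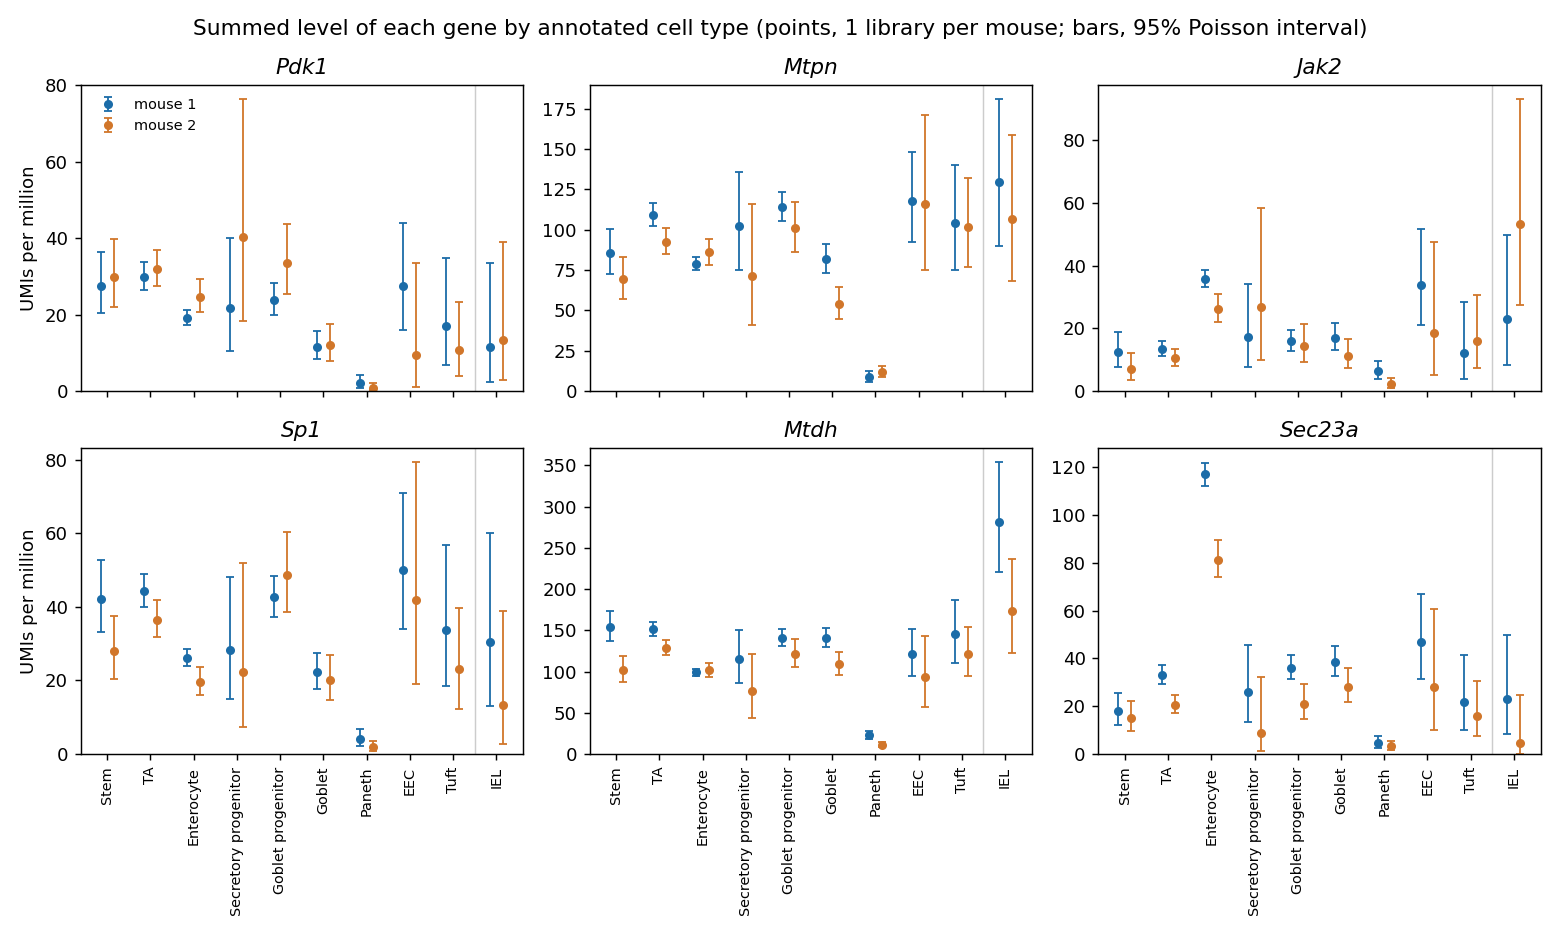
Level of each gene (CPM, linear axis from 0) in the 10 named types, with 1 point per mouse and the 95% Poisson interval as bars. Sec23a stood out in enterocytes at 117 and 81.3 CPM, and all 6 genes were at their lowest epithelial level in Paneth cells in both mice, before TMM scaling.

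Of the 6 genes, 4 differed across the 9 epithelial types (edgeR's quasi-likelihood F test on the 18 sums with a term for the mouse, Benjamini-Hochberg adjusted over all genes tested): Sec23a (adjusted p = 5.93e-14), Jak2 (adjusted p = 4.76e-08), Mtdh (adjusted p = 0.00614) and Pdk1 (adjusted p = 0.00631). Sp1 (adjusted p = 0.0592) and Mtpn (adjusted p = 0.736) did not pass. Differences between types were the rule in this tissue, since 8517 of 11013 genes tested (77.3%) passed the same test, and 4 of 6 is near that share. With 1 sum per type and mouse, the test assumes that all types share 1 spread per gene.

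Each type was then set against the mean of the other 8, and 12 of the 54 gene-by-type differences passed at an adjusted p under 0.05. Sec23a and Jak2 held 4 of them each, Mtdh and Pdk1 2 each, and Mtpn and Sp1 0. The share of all genes called in the same way ranged from 54.5% in enterocytes, 32.8% in TA (transit-amplifying) cells, 29.2% in goblet cells, 27.0% in Paneth cells and 25.6% in stem cells down to 21.6% in EEC (enteroendocrine cells), 16.0% in tuft cells, 12.1% in goblet progenitors and 4.78% in secretory progenitors. Enterocytes were called for 3 of the 6 genes, stem and TA cells for 2 each, goblet cells for 2, and Paneth cells, EEC and tuft cells for 1 each. No gene of the 6 was called in the goblet or secretory progenitors, the sums of the latter holding only 31 and 19 cells. Of the 54 differences 3 passed without a term for the mouse, and 4 when every cell was thinned to 5000 UMIs.

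**Figure D3:**
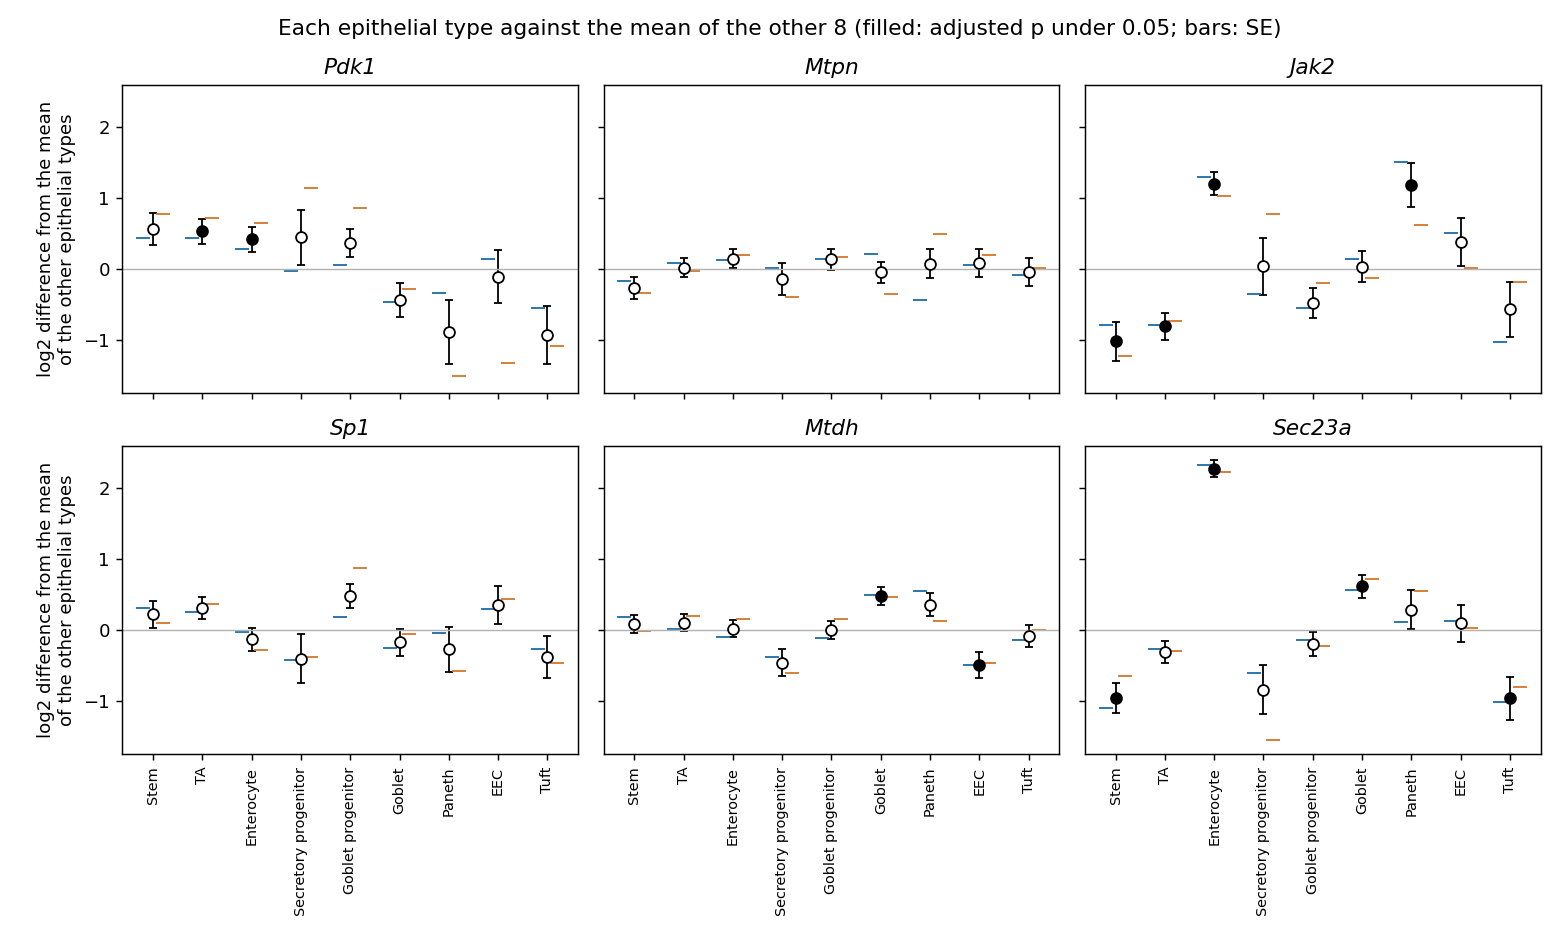
Difference of each epithelial type from the mean of the other 8, on the log2 scale, with the SE as bars, filled points where the adjusted p was under 0.05, and short lines for the ratio in mouse 1 (blue, left) and mouse 2 (orange, right). Sec23a reached 2.28 in enterocytes, while no point of Mtpn lay further than 0.26 from 0.

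Sec23a, the COPII subunit, showed the clearest pattern of the 6 genes and was an enterocyte gene in both mice. Its level in enterocytes was 117 CPM in mouse 1 (95% interval 112 to 122, 2266 UMIs) and 81.3 in mouse 2 (73.9 to 89.3, 435 UMIs). Goblet cells followed at 38.6 and 28.2, EEC at 46.7 and 27.9, goblet progenitors at 36.1 and 21.0 and TA cells at 33.2 and 20.6. The lowest values outside Paneth cells were found in tuft cells (21.8 and 16.1), secretory progenitors (26.1 and 8.93), stem cells (17.9 and 15.0) and IEL (22.8 and 4.44). Enterocytes lay above every other type in both mice, and of the 9 pairs of neighbouring types in the order of mean levels the other 8 overlapped between the mice. After TMM scaling the ratio of the highest to the lowest epithelial type was 8.56 in mouse 1 and 11.0 in mouse 2.

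Against the other epithelial types, Sec23a was higher in enterocytes by a log2 difference of 2.28 ± 0.13 (SE, adjusted p = 3.43e-16), with 2.32 in mouse 1 and 2.23 in mouse 2. It was also higher in goblet cells, by 0.61 ± 0.16 (adjusted p = 0.00432). Stem cells had less Sec23a, with a log2 difference of -0.96 ± 0.21 (adjusted p = 0.00109), as did tuft cells, with -0.96 ± 0.31 (adjusted p = 0.0272). The stem and tuft differences kept their sign but did not pass with thinned cells or without a term for the mouse, the tuft difference also not with DESeq2 or the stricter cell filter, and the goblet difference did not pass without the term for the mouse. In Paneth cells, whose level before scaling was only 4.55 and 3.21 CPM, the TMM-scaled level was 30.2 and 27.3 and the difference of 0.28 ± 0.28 did not pass. The antisense gene Gm17529 overlaps Sec23a, and how the counting used the strand is not given in the sources used here. The enterocyte difference passed under each of the 7 alternative settings tried, at 1.59 to 2.34, the lowest value coming from the stricter cell filter (at least 2500 genes and at most 10% mitochondrial UMIs), which kept 145 of 931 and 289 of 382 enterocytes.

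Sec23a also varied within the enterocytes. The authors' 5 enterocyte clusters, ordered by their Sec23a level, ran from cluster 2 with 56.3 CPM in mouse 1 and 27.5 in mouse 2, through cluster 6 (76.7 and 58.5), cluster 9 (89.0 and 80.1) and cluster 3 (150 and 120), to cluster 1 with 165 and 170. The Sec23a order was the same in both mice. Cluster 1 also held the most Apoa4, a lipoprotein gene of mature enterocytes (7011 and 5387 CPM), and cluster 2 the least (25.1 and 11.8), together with the most Mki67, a gene of dividing cells (20.6 and 28.2). These are descriptions, since the clusters were made from the same cells.

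The mitochondrial share moved with the same order. Its median rose from 10.2% in cluster 2 to 15.1% in cluster 1 in mouse 1 and from 5.89% to 9.65% in mouse 2, and enterocytes as a whole had the highest median of all types (13.2% and 7.59%). Among cells with at most 10% mitochondrial UMIs in mouse 2, Sec23a ran from 28.0 CPM in cluster 2 (102 cells) to 184 in cluster 1 (38 cells). In mouse 1 the same cut left 55.7 CPM in cluster 2 (83 cells), 63.6 in cluster 6 (36 cells) and 53.0 in cluster 9 (16 cells), so that the rise over these 3 clusters was not seen, and too few cells were left in clusters 1 and 3 to give a value.

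**Figure D4:**
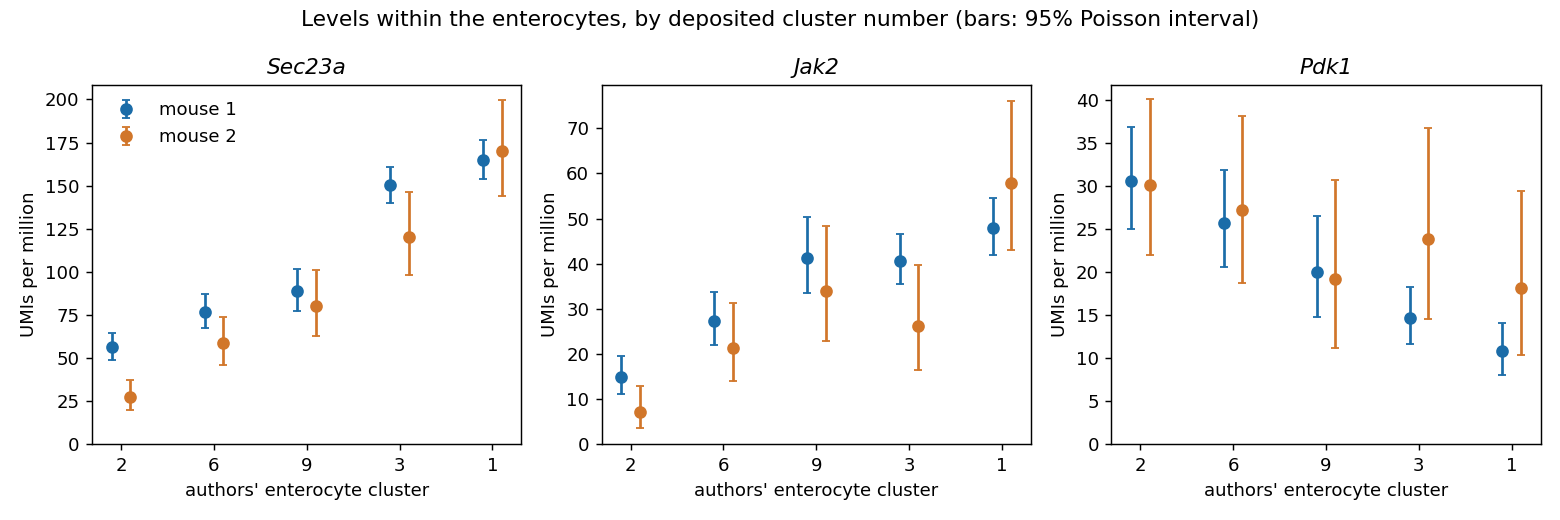
Levels of Sec23a, Jak2 and Pdk1 (CPM, 95% Poisson intervals as bars) in the authors' 5 enterocyte clusters, ordered by Sec23a, with 1 point per mouse. Sec23a and Jak2 were lowest in cluster 2 and highest in cluster 1 in both mice, and Pdk1 was highest in cluster 2 in both.

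The COPII list held 13 other genes, 12 of which were tested and 11 of which differed across the epithelial types, Sec24b being the exception (adjusted p = 0.107), where 77.3% of all genes did. Sec24d, a cargo-binding partner of SEC23, counted 0 UMIs in tuft cells of both mice and 3 and 2 UMIs in stem cells, against 1419 and 186 in enterocytes (73.3 and 34.8 CPM) and 257 and 94 in goblet cells (67.9 and 42.0). Because a contrast with a type at 0 has no finite size, Sec24d is left out of the following counts, which cover 11 genes.

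In enterocytes 7 of the 11 were higher and none lower (median log2 difference 0.94, against 0.03 over all genes tested). The largest values were those of Sec16b, which marks the exit sites of the endoplasmic reticulum (2.30 ± 0.20), the small GTPase Sar1b, known for chylomicron export (1.62 ± 0.12), and the cargo adaptor Sec24a (1.57 ± 0.18). In goblet cells 8 were higher and none lower (median 0.84, all genes -0.03), and in Paneth cells 6 were higher and none lower (median 0.80, all genes -0.04). In stem cells 8 were lower and none higher (median -0.67, all genes 0.03), in tuft cells 4 were lower (median -0.83, all genes -0.01) and in TA cells 4 were lower (median -0.35, all genes 0.05). Of all genes tested, 54.5% were called in enterocytes, 29.2% in goblet cells, 27.0% in Paneth cells, 25.6% in stem cells, 16.0% in tuft cells and 32.8% in TA cells, in either direction. The Paneth differences depend on the small TMM factors of the Paneth sums (0.151 and 0.118). With thinned cells, 803 of 8264 genes were called in Paneth cells, against 2969 of 11013 in the main fit. Sec23b, the close relative of Sec23a, did not share its enterocyte peak. Its level there was 43.8 and 24.3 CPM and its log2 difference was 0.15 ± 0.15 (adjusted p = 0.422), while in goblet cells it was higher by 0.93 ± 0.16 (adjusted p = 2.88e-05) and in stem cells its difference was -1.33 ± 0.23 (adjusted p = 5.67e-05). Sar1a and Sar1b stood apart in the same way, since Sar1a was higher in goblet cells (1.34 ± 0.13) and not in enterocytes (-0.13 ± 0.14). The difference between paralogs was not itself tested.

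**Figure D5:**
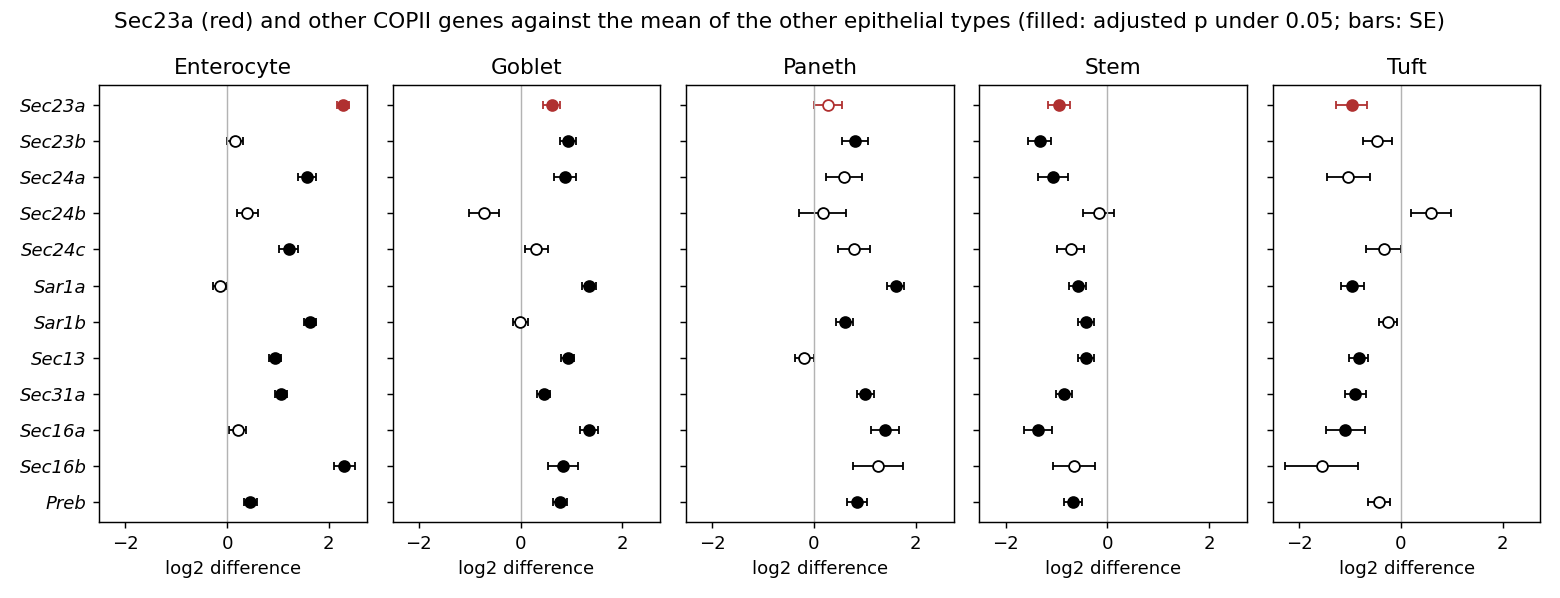
Log2 difference of each type from the mean of the other 8 (bars, SE), with filled points where the adjusted p was under 0.05, for Sec23a (red) and 11 other COPII genes in 5 types. In enterocytes Sec23a and Sec16b lay furthest right (2.28 and 2.30), whereas Sec23b was at 0.15.

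Jak2, the receptor-associated kinase, was likewise highest among epithelial types in enterocytes by its mean level, though at a lower count. Enterocytes held 35.7 CPM in mouse 1 (33.1 to 38.4, 691 UMIs) and 26.2 in mouse 2 (22.0 to 30.9, 140 UMIs), EEC 33.8 and 18.6, and secretory progenitors 17.4 and 26.8. Goblet progenitors (15.8 and 14.4), goblet cells (16.9 and 11.2) and tuft cells (12.1 and 16.1) lay lower, and TA cells (13.4 and 10.5), stem cells (12.3 and 6.86) and Paneth cells (6.26 and 2.29) lowest. Before TMM scaling, enterocytes lay above every other epithelial type in mouse 1, and above all but the secretory progenitors in mouse 2. After scaling, Paneth cells were highest in mouse 1 (41.5, against 36.6 in enterocytes) and enterocytes in mouse 2 (25.2). EEC and secretory progenitors counted only 4 to 21 UMIs, and their intervals overlapped those of enterocytes in both mice.

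The log2 difference of Jak2 was 1.21 ± 0.16 in enterocytes (adjusted p = 1.18e-07), and it passed under each of the 7 alternatives at 0.65 to 1.33, again lowest with the stricter cell filter. In stem cells it was -1.01 ± 0.28 (adjusted p = 0.00651) and in TA cells -0.81 ± 0.19 (adjusted p = 0.00167). These were -0.28 and -0.31 with thinned cells, and neither passed there, under the stricter cell filter or without a term for the mouse. Paneth cells were called higher, by 1.19 ± 0.32 (adjusted p = 0.00452), but the ratio was 1.52 in mouse 1 and 0.63 in mouse 2 from 22 and 10 UMIs. Their unscaled level was the lowest of all types and the scaled one 41.5 and 19.5, and the difference turned to -0.56 with the stricter cell filter, which left 15 Paneth cells, all of mouse 2, in the fit. Within the enterocytes, Jak2 was lowest in cluster 2 (14.9 and 7.21 CPM) and highest in cluster 1 (47.9 and 57.8), the same ends as for Sec23a. All 5 clusters kept the same Jak2 order in both mice (2, 6, 3, 9, 1).

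When every cell was thinned to 5000 UMIs, 41.4% of the enterocytes of mouse 1 (exact 95% interval 38.2 to 44.6) and 31.9% of those of mouse 2 (27.3 to 36.9) kept a UMI of Sec23a, against 8.82% and 7.69% of the stem cells. Without thinning the shares were 81.0% and 61.8% of enterocytes and 18.7% and 17.9% of stem cells, at median depths of 16975, 13405, 12282 and 12559 UMIs. For Jak2 the thinned shares were 17.4% and 11.0% of enterocytes and 7.35% and 5.13% of stem cells. Both genes are widely expressed, and without a type known to lack them the contribution of free RNA cannot be read from these cells.

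Of the other genes of the JAK-STAT list, 7 of 12 tested differed across the epithelial types, a smaller share than the 77.3% of all genes. In enterocytes 5 of the 10 with UMIs in every type were higher and none lower (median log2 difference 0.58, all genes 0.03), near the 54.5% of all genes called there, among them Stat3, which JAK2-linked cytokine receptors activate (1.06 ± 0.15). Stat3 was also lower in stem cells (-1.35 ± 0.25, adjusted p = 1.61e-04) and in TA cells (-0.75 ± 0.18, adjusted p = 0.00145), the types in which Jak2 was lower, and higher in goblet and Paneth cells. Its Paneth difference again depends on the small TMM factors of the Paneth sums. Socs3, the feedback inhibitor of this pathway, was at 32.2 and 18.6 CPM in EEC and 11.8 and 6.17 in enterocytes, with 0 UMIs in the secretory progenitors of both mice, a sum in which 3 UMIs would be 6.52 and 13.4 CPM. Stat2 differed across the types (adjusted p = 0.00114) and was higher in goblet cells (1.14 ± 0.33, adjusted p = 0.00832).

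Mtdh (metadherin) was detected in every type, over a narrower range than Sec23a (after TMM scaling the highest type had 1.90 and 1.96 times the level of the lowest). 9930017N22Rik overlaps it on the same strand. Outside Paneth cells its levels ran from 99.0 to 154 CPM in mouse 1 and from 75.9 to 129 in mouse 2. The highest epithelial level was in stem cells in mouse 1 and in TA cells in mouse 2. Goblet cells (141 and 109 CPM, or 147 and 119 after TMM scaling) were higher by a log2 difference of 0.48 ± 0.12 (adjusted p = 0.00310), with 0.50 and 0.47 in the mice. EEC (121 and 92.8, or 79.3 and 66.1 after scaling) were lower by the test, at -0.49 ± 0.18 (adjusted p = 0.0452), from 75 and 20 UMIs. Unscaled, both goblet cells and EEC lay within the range of the other types. After scaling, Paneth cells were the highest epithelial type in mouse 1 (151, against 147 in goblet cells). The EEC call was lost with DESeq2, with thinned cells, without a term for the mouse and with the IEL sums in the fit. The goblet difference did not pass with thinned cells or without the term for the mouse. Within the enterocytes Mtdh ran the other way from Sec23a, with 136 and 113 in cluster 2 and 80.9 and 82.7 in cluster 1.

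Snd1, the nuclease-domain protein that metadherin binds, also differed across the types (adjusted p = 3.68e-04), but in others. It was higher in Paneth cells (0.80 ± 0.20, adjusted p = 0.00283) and lower in tuft cells (-0.98 ± 0.25, adjusted p = 0.00457), and in goblet cells its difference of 0.32 did not pass. The Paneth difference depends on the small TMM factors of the Paneth sums (0.151 and 0.118). Before scaling, the epithelial level of Snd1 was lowest in Paneth cells in both mice.

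Pdk1, the pyruvate dehydrogenase kinase, was highest by level in dividing and progenitor cells before TMM scaling. TA cells held 29.9 and 31.8 CPM (252 and 182 UMIs), stem cells 27.5 and 29.9, goblet progenitors 23.8 and 33.6, secretory progenitors 21.7 and 40.2, and enterocytes 19.1 and 24.7. Goblet cells held 11.6 and 12.1, tuft cells 16.9 and 10.7 and Paneth cells 1.99 and 0.687. EEC, from 17 and 2 UMIs, gave 27.4 and 9.28, so that their place in the order is unknown. The levels of TA and stem cells lay above those of goblet and tuft cells in both mice. After TMM scaling, enterocytes (19.6 and 23.8) lay above goblet progenitors (17.0 and 27.1) and secretory progenitors (16.1 and 32.1) in mouse 1 only. TA cells (21.6 and 24.9) and stem cells (21.5 and 25.7) stayed above enterocytes in both mice. By the test TA cells were higher (0.54 ± 0.18, adjusted p = 0.0174) and enterocytes were higher (0.42 ± 0.18, adjusted p = 0.0446). The enterocyte value was 0.28 in mouse 1 and 0.66 in mouse 2, and it dropped to 0.26 and did not pass when the Paneth sums, at 7 and 3 UMIs, were left out. It also failed with DESeq2, with thinned cells and without a term for the mouse, and the TA difference failed without that term. In stem cells the difference of 0.56 ± 0.22 missed the threshold (adjusted p = 0.0606). Within the enterocytes Pdk1 ran from 30.6 and 30.1 in cluster 2 to 10.8 and 18.1 in cluster 1.

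The list of the pyruvate dehydrogenase complex and its regulators held 10 other genes, of which 9 were tested and 7 differed across the types, near the 77.3% of all genes. In enterocytes 6 of the 8 with UMIs in every type were higher and none lower (median 0.72, all genes 0.03), where 54.5% of all genes were called. Dlat, the E2 subunit, was higher in enterocytes (1.40 ± 0.17) and in TA cells (1.16 ± 0.17), as Pdk1 was, and lower in Paneth cells (-2.72 ± 0.55). The Paneth value rests on TMM-scaled levels of 7.54 CPM in mouse 1 and 0 in mouse 2. These low sums also enter the mean against which enterocytes and TA cells were set. The sister kinases had patterns of their own, which were not tested against that of Pdk1. Pdk3 was higher in EEC (2.12 ± 0.31, adjusted p = 2.77e-06) at 56.4 and 111 CPM against 0.853 to 32.6 in the other epithelial types. Pdk4 was counted with 110 and 12 UMIs in enterocytes, whose sums held 19366535 and 5348340 UMIs of all genes. In EEC it had 7 and 1, in sums of only 620638 and 215413, so the raw counts give no order of level. Tuft cells and secretory progenitors of both mice had 0. There 3 UMIs would be 7.25 and 5.36 CPM in tuft cells and 6.52 and 13.4 in secretory progenitors. Pdk2 was higher in enterocytes (0.89 ± 0.17) and lower in TA cells (-0.93 ± 0.21).

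Pdpk1, the kinase that shares the protein name PDK1, had another pattern, with its peak in tuft cells, the chemosensory cells of the epithelium. Tuft cells held 87.1 and 87.5 CPM (36 and 49 UMIs), EEC 56.4 and 41.8, and the other epithelial types outside Paneth cells 13.4 to 40.4. Tuft cells lay above every other type in both mice, at a log2 difference of 1.23 ± 0.20 (adjusted p = 2.28e-05), with 1.19 and 1.31 in the mice, and no other epithelial type passed for this gene. Its difference across all types gave an adjusted p of 2.75e-04. In tuft cells the Pdk1 difference was -0.93 ± 0.40 and did not pass (adjusted p = 0.126), though it was called when the Paneth sums were left out.

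Mtpn (myotrophin) showed no difference across the epithelial types. Its level outside Paneth cells was 78.9 to 118 CPM in mouse 1 and 54.1 to 116 in mouse 2, and after TMM scaling the ratio of the highest to the lowest type was 1.51 and 1.74. The order of the types was not shared between the mice (Pearson's r of the log2 levels was -0.39 over 9 types). No single type passed, the largest difference being -0.26 ± 0.16 in stem cells (adjusted p = 0.246). EEC, the type in which miR-375 is known to be abundant in normal gut, were at 118 and 116 CPM, and 77.1 and 82.6 after scaling, a difference of 0.09 ± 0.20. The capping protein subunits that myotrophin binds did vary, as all 3 (Capza1, Capza2 and Capzb) differed across the types and were higher in enterocytes, Capzb also in goblet (1.04 ± 0.12) and tuft cells (0.55 ± 0.15).

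Sp1 ran between 22.2 and 49.9 CPM in mouse 1 and between 19.6 and 48.6 in mouse 2 outside Paneth cells. EEC (49.9 and 41.8), goblet progenitors (42.6 and 48.6) and TA cells (44.3 and 36.5) stood above enterocytes (26.1 and 19.6) and goblet cells (22.2 and 20.1) in both mice. None of its differences passed, the nearest being goblet progenitors at 0.48 ± 0.17 (adjusted p = 0.0579), with 0.18 in mouse 1 and 0.87 in mouse 2. With no filter on low counts and with the stricter cell filter, Sp1 was called in goblet progenitors and in TA cells. The gene did pass the test across types under 3 of the 7 alternatives (no filter on low counts, the stricter cell filter and the fit without Paneth sums). Of 5 other Sp factors 4 were tested, and only Sp5, a Wnt target, differed across the types. Sp5 was at 24.1 and 12.5 CPM in stem cells and 14.6 and 7.11 in enterocytes, and tuft cells counted 0 UMIs of it in both mice.

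In EEC none of the 6 genes was called higher and 1, Mtdh, was called lower, a share near the 21.6% of all genes called there, and that call was lost under 4 of the 7 alternatives. The differences of the other 5 there lay between -0.10 and 0.39, with adjusted p from 0.414 to 0.917, and the EEC sums rest on 54 and 20 cells.

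IEL, the lymphocytes between the epithelial cells, were set against the mean of the 9 epithelial types in a fit of all 20 sums, in which 30.0% of 11402 genes were called. Mtdh was higher in IEL, at 282 CPM in mouse 1 (221 to 354) and 173 in mouse 2 (123 to 237), above every epithelial type in both mice, with a log2 difference of 0.77 ± 0.18 (adjusted p = 8.13e-04). Sec23a was lower (-1.21 ± 0.47, adjusted p = 0.0490), but from only 6 and 1 UMIs, with a ratio of -0.73 in mouse 1 and -2.35 in mouse 2 on the log2 scale. Jak2 had 6 and 12 UMIs, or 22.8 and 53.2 CPM, and its difference of 0.90 ± 0.42 did not pass (adjusted p = 0.109). Pdk1, Mtpn and Sp1 did not pass either. IEL were few, with 50 and 18 cells. After thinning, which left 11 and 18 of them, the Mtdh difference was 0.44 and did not pass, and that of Sec23a did not pass with DESeq2 or without a term for the mouse. Thinned IEL held 0 UMIs of Sec23a in both mice, so its pass there, at -7.30, has no finite size behind it.

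The mice differed from each other in the summed level of some of these genes. Over all epithelial cells Sec23a was at 68.2 CPM in mouse 1 (65.8 to 70.7) and 32.2 in mouse 2 (29.9 to 34.6), a ratio of 2.12, and it was higher in mouse 1 in 9 of 9 types. Jak2 gave a ratio of 1.79 and was higher in mouse 1 in 7 of 9 types. The ratio was 1.29 for Sp1, 1.23 for Mtdh, 1.21 for Mtpn and 0.953 for Pdk1. Mouse 1 had more of its cells in the enterocyte class (931 of 2082, against 382 of 1193) and more of its enterocytes in cluster 1 (30.3% against 18.8%). The mitochondrial share of mouse 1 was also higher. Paneth cells, which pull other genes down on this scale, took a larger share of the UMIs in mouse 2. They held 3515066 of the 44017234 UMIs of kept cells in mouse 1 and 4363692 of 22163354 in mouse 2. The part of these in the ratios was not tested, and with 1 library per mouse a difference between animals and one between libraries cannot be told apart.

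The genes whose levels followed each of the 6 most closely were ranked by the lower of the mice's Pearson correlations of log2 level over the 9 epithelial types. For Sec23a these were Iqgap2 (r = 0.99 and 0.95), Ggnbp2 (0.95 and 0.97) and Plpp1 (0.96 and 0.94). For Jak2 they were Ralgps1 (0.90 and 0.88), Dennd1b (0.93 and 0.87) and Mroh1 (0.97 and 0.84), and for Mtdh Mospd3 (0.91 and 0.94), Duox2 (0.87 and 0.89) and Irgm1 (0.83 and 0.95). Pdk1 was followed by Pag1 (0.87 and 0.86) and Plcb3 (0.85 and 0.83), Sp1 by Eea1 (0.85 and 0.82), Wdfy3 (0.84 and 0.79) and Hira (0.78 and 0.81), and Mtpn by Slc39a3 (0.89 and 0.81), Ap5z1 (0.73 and 0.75) and Dip2a (0.88 and 0.73). Each correlation is over 9 points that share a library, and the best of 11013 genes is high by the choice itself. The pattern of a gene in mouse 1 correlated with its own in mouse 2 at 0.92 for Sec23a, 0.76 for Mtdh, 0.71 for Jak2, 0.70 for Sp1 and 0.60 for Pdk1.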

How the data were processed

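Jejunal crypt cells of 2 mice were profiled with 10x Genomics 3′ v2 chemistry, 1 library per mouse. The authors deposited UMI counts per gene and cell barcode, made with Cell Ranger 3.0.1 (submitters' processing notes, which also name Seurat 3.2.1), and a table of kept cells with cluster, cell type and mitochondrial percent. The authors removed doublets (scDblFinder) before deposit. The study's methods name SoupX, without saying for which deposited file. Mitochondrial percent values were used as deposited. Of the deposited tables, 2937 cell columns belong to samples of another series and were not used. Kept cells were joined to the count matrices by barcode. For 3275 of 3275 cells, UMI and gene totals were equal in the table of kept cells and the count table deposited after doublet removal. The matrices, from which the levels here come, were not compared cell by cell in this way. Over kept cells they held 44017234 UMIs in mouse 1 and 22163354 in mouse 2, against 44015354 and 22160291 in that count table. Pdk1, Mtpn, Jak2, Sp1, Mtdh and Sec23a each had 1 identical row there.

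Counts were summed per mouse and type (sums of at least 10 cells) and tested with edgeR 4.0.16 in R 4.3.3: filterByExpr, TMM, robust quasi-likelihood fit, two-sided F tests, terms for type and mouse, Benjamini-Hochberg over all genes tested, threshold 0.05. The same script was tested on simulated data. Ratios per mouse used a prior count of 2. Alternatives were DESeq2 1.42.0, no filter on low counts, no term for the mouse, cells thinned to 5000 UMIs, a stricter cell filter (at least 2500 genes and at most 10% mitochondrial UMIs), and fits with the IEL sums or without the Paneth sums. The p-values set each difference between types against the disagreement of such differences between these 2 mice, after the term for the mouse. The epithelial fit leaves 8 residual degrees of freedom per gene. The quasi-likelihood fit also borrows information on spread across the genes tested, so the p-values do not rest on these 8 alone.

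The 6 genes and the lists of partner genes were chosen with earlier results of these data known. Named were the 6 genes, Pdpk1, the 3 genes with the most similar pattern to each, and, per partner list, at most the 3 with the widest range of mean log2 level among those that differed across types. Sec23b, Sec24b, Sar1a, Sar1b, Stat3 and Pdk2 were named after their values were seen. Of the genes this rule names, 2 are not reported here. Partner genes at 0 UMIs in both mice of any epithelial type were left out of the contrasts.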

Additional observations from a re-analysis of the deposited data

How the results depend on the processing

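Without a term for the mouse, 2 of the 6 genes (Jak2 and Sec23a) differed across the epithelial types rather than 4, 3 of the 54 gene-by-type differences passed rather than 12, and 1 of the IEL differences passed rather than 2. With cells thinned to 5000 UMIs, 4 of the 12 and 1 of the 2 passed. The IEL difference that passed was that of Sec23a, where thinned IEL held 0 UMIs in both mice. Its fitted size of -7.30 therefore has no meaning. The enterocyte differences of Sec23a and Jak2 passed in all 7 fits tried. Jak2 in Paneth cells turned to -0.56 under the stricter cell filter and was 0.19 with thinned cells. DESeq2 called 9 differences, all among the 12, and did not call Mtdh in EEC, Pdk1 in enterocytes or Sec23a in tuft cells. Of 91 tested alternative values of the called differences, 62 kept direction and call, 28 kept the direction only and 1 reversed. The 62 include the value of Sec23a in thinned IEL. All 28 values from a single mouse, which have no test, kept their sign. This is no separate check, since the called differences were fitted to these same 2 mice. Calls were added for Sp1 in goblet progenitors and TA cells (no filter on low counts, stricter cell filter) and for Pdk1 in tuft cells (Paneth sums left out). Thinning, dropping the filter on low counts and the stricter cell filter each shift the median of all genes by more than 0.1 on the log2 scale in some types. With the stricter cell filter it was -0.208 in Paneth cells, against -0.040 in the main fit. In order of level, EEC moved from first to rank 3 for Mtpn and rank 2 for Sp1, and TA cells to rank 3 for Mtdh, after TMM scaling. The causes were not tested. With 2 mice, a fit without either leaves no residual degrees of freedom, so each mouse's ratio stands beside the result instead. No paired analysis was possible because all samples form 1 group, other than the term for the mouse, which pairs the types of a mouse. Depth limits IEL, EEC and secretory progenitors, where a gene's sum often held few UMIs.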
